A study of Mus musculus with 10 samples.

Results

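The clustered protocadherins of the mouse were examined in bulk RNA-seq libraries of the mandibular prominence (MNP), the part of the first pharyngeal arch from which the lower jaw forms. Members were all symbols of the alpha, beta and gamma protocadherin clusters, recognised by name alone (Pcdha, Pcdhac, Pcdhb, Pcdhga, Pcdhgb or Pcdhgc followed by a number), and came to 57 of the 33641 symbols in the files, 13 alpha, 22 beta and 22 gamma. The study asked how Hand2 and the Gli transcription factors act in the MNP, and polyadenylated RNA was profiled at embryonic day 10.5 in CD1 embryos of 3 genotypes. 6 of the 10 samples were used: WT (replicates 3 and 4), Hand2 f/f; Wnt1-Cre+ (Hand2 cKO, replicates 1, 2 and 3) and Wnt1-Cre+ embryos with both Gli2 f/f and Gli3 f/f alleles (Gli2/3 cKO, replicate 3), and the other 4 were not analysed here. Wnt1-Cre deletes the floxed alleles in the neural crest lineage, so epithelium, endothelium, blood and arch muscle precursors of a mutant MNP keep the genes. The sources used here do not say whether embryos were pooled for a library, so the p-values measure the spread between these libraries.

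Clustered protocadherins are cadherin-related adhesion proteins of the cell surface that bind the same isoform on a facing cell, and they are best known from neurons, where the combination of isoforms that a cell makes lets its branches tell self from non-self. Each alpha and each gamma isoform is made by splicing its own large variable exon, which carries the promoter and codes for the whole extracellular part, to a set of constant exons that all isoforms of the cluster share and that code for a common cytoplasmic end. Beta isoforms have no constant exons and each is a gene of its own. Most promoters are chosen at random in a given cell, with help of the looping protein Ctcf and of cohesin, whereas the C-type isoforms, Pcdhac1, Pcdhac2, Pcdhgc3, Pcdhgc4 and Pcdhgc5, are switched on more broadly.

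In the GENCODE M21 annotation (mm10) all 57 members lay on the plus strand of chromosome 18, in the order alpha (chr18:36930184-37187661), beta (chr18:37264938-37524479) and gamma (chr18:37661793-37841873). The main transcript of every beta member had a single exon. The alpha and gamma isoforms shared 3 constant exons per cluster, 2860 bases in alpha and 2119 in gamma. The deposited values are counts per transcript that a program estimated, and reads from constant exons fit every isoform of a cluster. A median of 43.9% of the 100-base windows of an alpha member's main transcript and 51.9% of a gamma member's were found in no transcript of another symbol, against 99.8% for beta members. 65.4% of the beta values above 0 were whole to within 0.01, as against 4.55% of the alpha and 2.80% of the gamma values, so isoform values in alpha and gamma are shared-out reads and are less certain than those in beta. Some members, such as Pcdhga10, Pcdhb12 and Pcdhgc3, also overlap an annotated antisense gene, and the sources used here do not say whether counting used strand.

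Libraries held 21420197 to 53326697 estimated counts. 2 libraries stood apart. In Hand2 cKO 2, log2 counts fell by 0.384 per doubling of transcript length relative to the mean of all libraries, while the slopes of the other 5 libraries ran from 0.00349 to 0.148. WT 4 held the fewest counts and differed from WT 3 in the summed level of 8 erythroid genes, 10001 against 2617 CPM (counts relative to library size, which was scaled by TMM, the trimmed mean of M values). The Y-linked gene Ddx3y, which marks male tissue, had 45.3 CPM in WT 4 and 0.195 in WT 3. It had 0.132, 22.6 and 0.289 CPM in Hand2 cKO 1, 2 and 3 and 55.7 in Gli2/3 cKO. The targeted genes followed the labels: Hand2 had 174 and 209 CPM in WT, 13.4, 25.4 and 15.6 in Hand2 cKO and 144 in Gli2/3 cKO, and in Gli2/3 cKO Gli2 had 58.3 CPM and Gli3 80.1, below all 5 other libraries. Where a group's sum of any gene differed, fewer cells of a type and less RNA per cell cannot be told apart in bulk tissue.

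The gamma cluster made up nearly all clustered protocadherin counts of the MNP. It took 94.0% to 96.9% of the summed CPM of the 57 members in the 6 libraries, the beta cluster 2.03% to 4.40% and the alpha cluster 0.871% to 1.62%. Summed gamma CPM was 440 in WT 3, 392 in WT 4, 415, 338 and 429 in Hand2 cKO 1, 2 and 3, and 375 in Gli2/3 cKO. The gamma sums of WT and Hand2 cKO therefore overlapped, with means of 416 ± 33.6 (SD, n = 2) and 394 ± 49.2 (SD, n = 3). All 22 gamma members had at least 3 estimated counts in every library, which is the limit that a count of 0 allows, while 15 of 22 beta and 1 of 13 alpha members did.

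**Figure D1:**
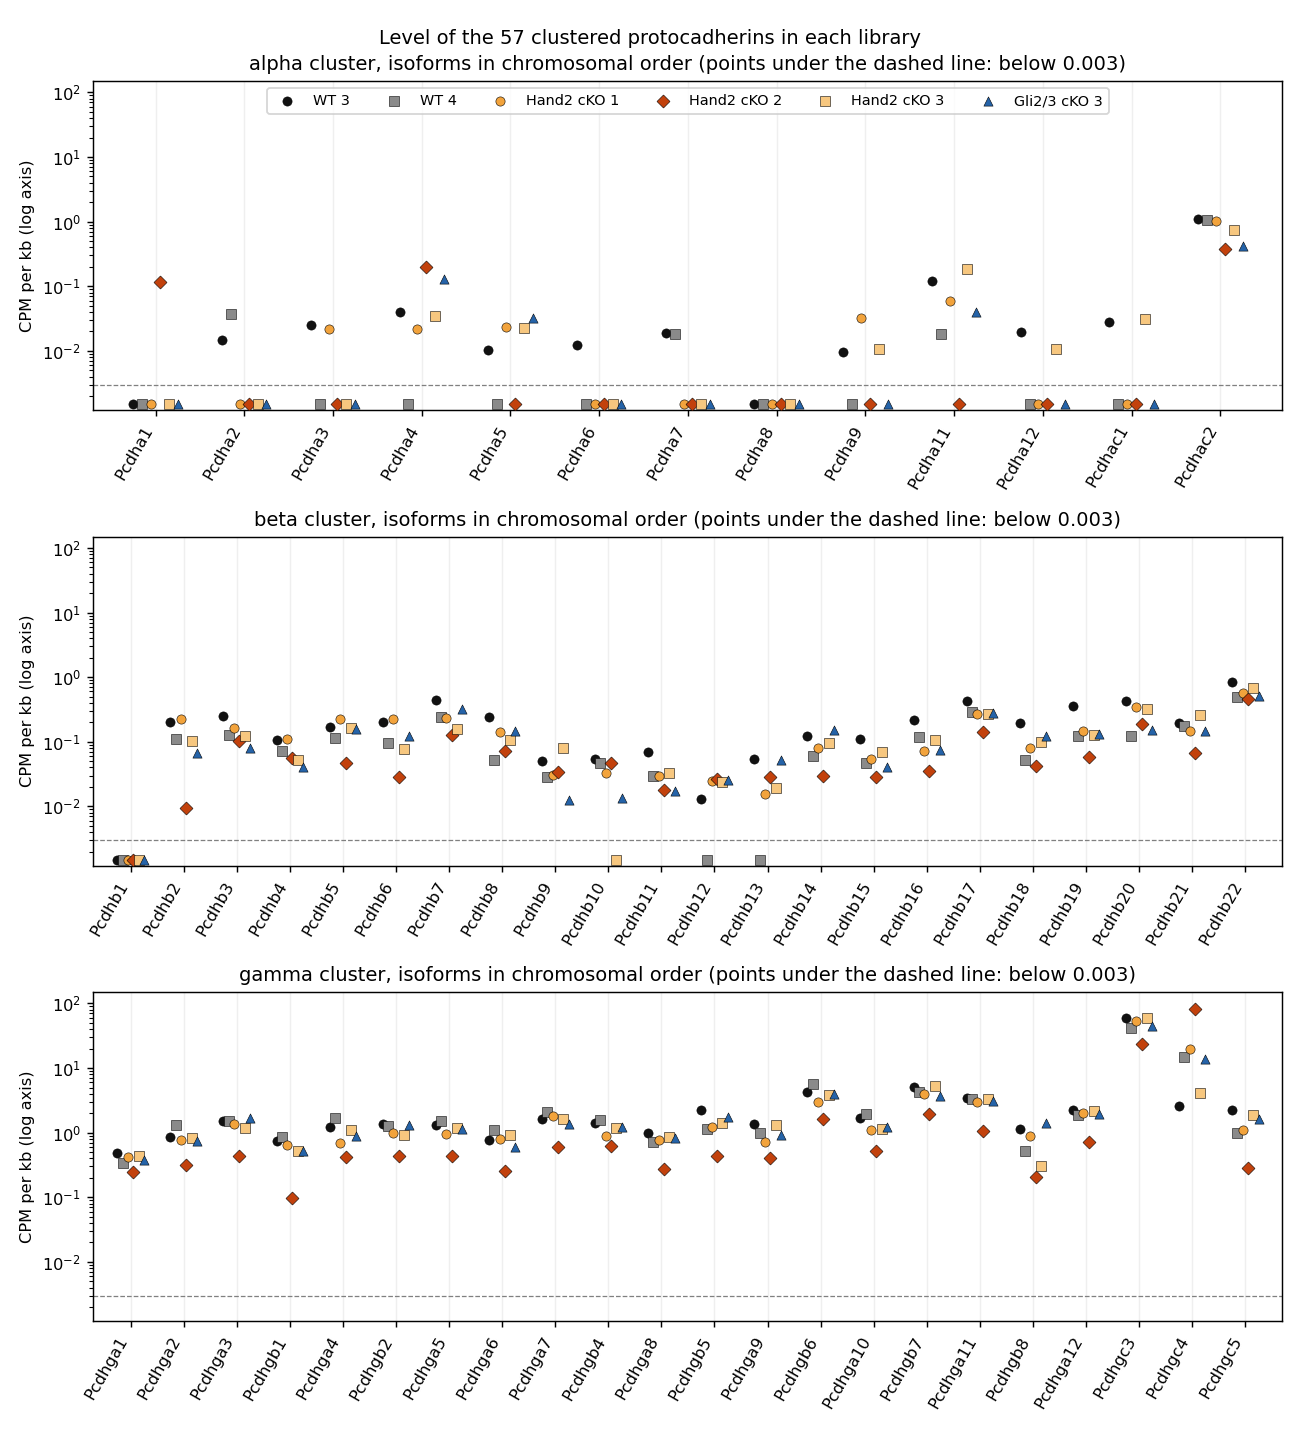
Level of each of the 57 clustered protocadherins in CPM per kilobase of transcript (log axis), with isoforms in chromosomal order from left to right and 1 point per library. Points under the dashed line are at 0 or below 0.003; gamma isoforms lie highest, Pcdhac2 lies highest among the alpha isoforms, and the red diamonds of Hand2 cKO 2 lie lowest in 21 of 22 gamma isoforms.

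The alpha cluster was nearly silent apart from Pcdhac2, the C-type isoform at its downstream end, which is known from serotonergic axons, where it serves their even spacing. Pcdhac2 had 6.39 CPM in WT 3, 6.19 in WT 4, 5.99, 2.20 and 4.32 in Hand2 cKO 1, 2 and 3 and 2.51 in Gli2/3 cKO. Per kilobase it took 54.5% to 93.5% of the alpha cluster and ranked first in all 6 libraries. The other C-type alpha isoform, Pcdhac1, was above 0 only in WT 3 and Hand2 cKO 3, at 0.150 and 0.167 CPM. Pcdha8 was at 0 in every library. For counting error only, that allows a level of up to 0.140 CPM in the least deep library and 0.0563 in the deepest. Both limits are relative to total counts without TMM scaling.

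The variable alpha isoforms appeared in some libraries and not in others. WT 3, with 49545102 estimated counts, had 11 alpha members above 0, and WT 4, with 21420197, had 4. Pcdha4 was next to Pcdhac2 in mean level, at 0.180 CPM in WT 3, 0 in WT 4, 0.0896, 0.814 and 0.142 in Hand2 cKO 1, 2 and 3 and 0.541 in Gli2/3 cKO. Its 2 protein-coding transcripts share nearly all their 100-base windows with annotated transcripts of other symbols, 1.80% and 2.28% being found in none of them. Pcdha1 had 0.604 CPM in Hand2 cKO 2 and 0 in the other 5 libraries. Pcdha11, a symbol that 2 annotated genes carry, ranged from 0 in Hand2 cKO 2 to 0.292 CPM in Hand2 cKO 1. The lowest detected alpha isoforms were Pcdha6, with 0.0537 CPM in WT 3 alone, and Pcdha12, with 0.103 CPM in WT 3 and 0.0569 in Hand2 cKO 3. Only 4 alpha members (Pcdha1, Pcdha4, Pcdha11 and Pcdhac2) passed the filter on low counts.

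The beta cluster was low but broad, with 21 of 22 members above 0. Pcdhb1, the first gene of the cluster, was at 0 in every library. Summed beta CPM was 20.6 in WT 3 and 10.6 in WT 4, 13.0, 7.08 and 12.4 in Hand2 cKO 1, 2 and 3, and 12.1 in Gli2/3 cKO. The 2 WT libraries were thus the highest and the second lowest of the 6, and WT 4 held 51.2% of the level of WT 3. All 21 beta members above 0 were higher in WT 3 than in WT 4, as were 50.9% of the 17477 genes tested. In the alpha cluster 10 members were higher in WT 3 and 1 in WT 4, and in the gamma cluster 12 and 10. Of 13 tested neuronal markers 8 were higher in WT 3, while their sum was higher in WT 4 through Gap43, a growth cone protein (66.2 and 106.5 CPM), and Isl1, a transcription factor of motor and sensory neurons (17.4 and 26.5 CPM). The part that cell make-up, sex or depth plays in the beta difference was not tested.

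Pcdhb22, the last gene of the cluster, led the beta isoforms in every library, with 4.04 CPM in WT 3, 2.34 in WT 4, 2.68, 2.20 and 2.70 in Hand2 cKO 1, 2 and 3 and 2.43 in Gli2/3 cKO. It took 17.6% to 28.2% of the beta level per kilobase. Behind it came Pcdhb17, Pcdhb20 and Pcdhb7, at means of 0.281 ± 0.0919, 0.260 ± 0.124 and 0.254 ± 0.117 CPM per kilobase (SD, n = 6), so that these 3 could not be ordered beyond the spread between libraries. Pcdhb22 itself stood at 0.597 ± 0.144 CPM per kilobase. At the lower end were Pcdhb13 and Pcdhb12, with 0.0283 ± 0.0215 and 0.0188 ± 0.0105 CPM per kilobase, both at 0 in WT 4.

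Within the gamma cluster Pcdhgc3, a C-type isoform that is also found in many tissues outside the brain, carried the largest part. It had 269 CPM in WT 3, 195 in WT 4, 243, 99.8 and 275 in Hand2 cKO 1, 2 and 3 and 203 in Gli2/3 cKO, and Hand2 cKO 2 was the library apart. Per kilobase it ranked first in 5 libraries and second in Hand2 cKO 2, where it took 20.6% of the cluster's level, against 45.9% to 62.5% elsewhere. Pcdhgb7, Pcdhgb6 and Pcdhga11 held ranks 2 to 5 in every library, with Pcdhgb7 at 4.01 ± 1.18 and Pcdhgb6 at 3.74 ± 1.32 CPM per kilobase (SD, n = 6), which their spread does not separate. Pcdhgb1 and Pcdhga1, near the upstream end of the cluster, were lowest, at 0.563 ± 0.261 and 0.383 ± 0.0842 CPM per kilobase.

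Pcdhgc4, the gamma isoform on which survival of many neurons depends, had the most uneven values of the gamma cluster, with an SD above its mean (22.6 ± 29.4 CPM per kilobase, SD, n = 6). It had 8.54 CPM in WT 3, 37.4 in WT 4, 47.6, 185 and 12.8 in Hand2 cKO 1, 2 and 3 and 34.0 in Gli2/3 cKO. The unevenness lay in 1 short annotated transcript of 2272 bases, 93.3% of which are constant-exon bases that every gamma isoform shares. The short transcript had 2.99 and 29.4 CPM in WT 3 and WT 4, 41.9, 183 and 5.80 in Hand2 cKO 1, 2 and 3 and 28.3 in Gli2/3 cKO, so it held 35.0% of the gene's estimated counts in WT 3 and 99.0% in Hand2 cKO 2. The full-length transcript of 5024 bases, which holds the variable exon, stood at 4.19 and 6.99 CPM in WT, 4.50, 0.930 and 5.59 in Hand2 cKO and 5.49 in Gli2/3 cKO. In all libraries but Hand2 cKO 2 it thus ranged from 4.19 to 6.99 CPM.

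In Hand2 cKO 2, where the short Pcdhgc4 transcript was highest, full-length Pcdhgc3 was lowest. The full-length Pcdhgc3 transcript had 249.5 and 193 CPM in WT 3 and WT 4, 216, 59.9 and 265 in Hand2 cKO 1, 2 and 3 and 186 in Gli2/3 cKO. Pcdhgc3 and Pcdhgc4 together had 278 and 232 CPM in WT, 290, 285 and 288 in Hand2 cKO and 237 in Gli2/3 cKO. Their sum was thus nearly level over the 3 Hand2 cKO libraries, at 288 ± 2.72 CPM (SD, n = 3), although Pcdhgc3 alone ranged from 99.8 to 275 there. How reads of the constant exons were divided between these transcripts cannot be told apart from a change of the transcripts themselves in estimated counts.

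**Figure D2:**
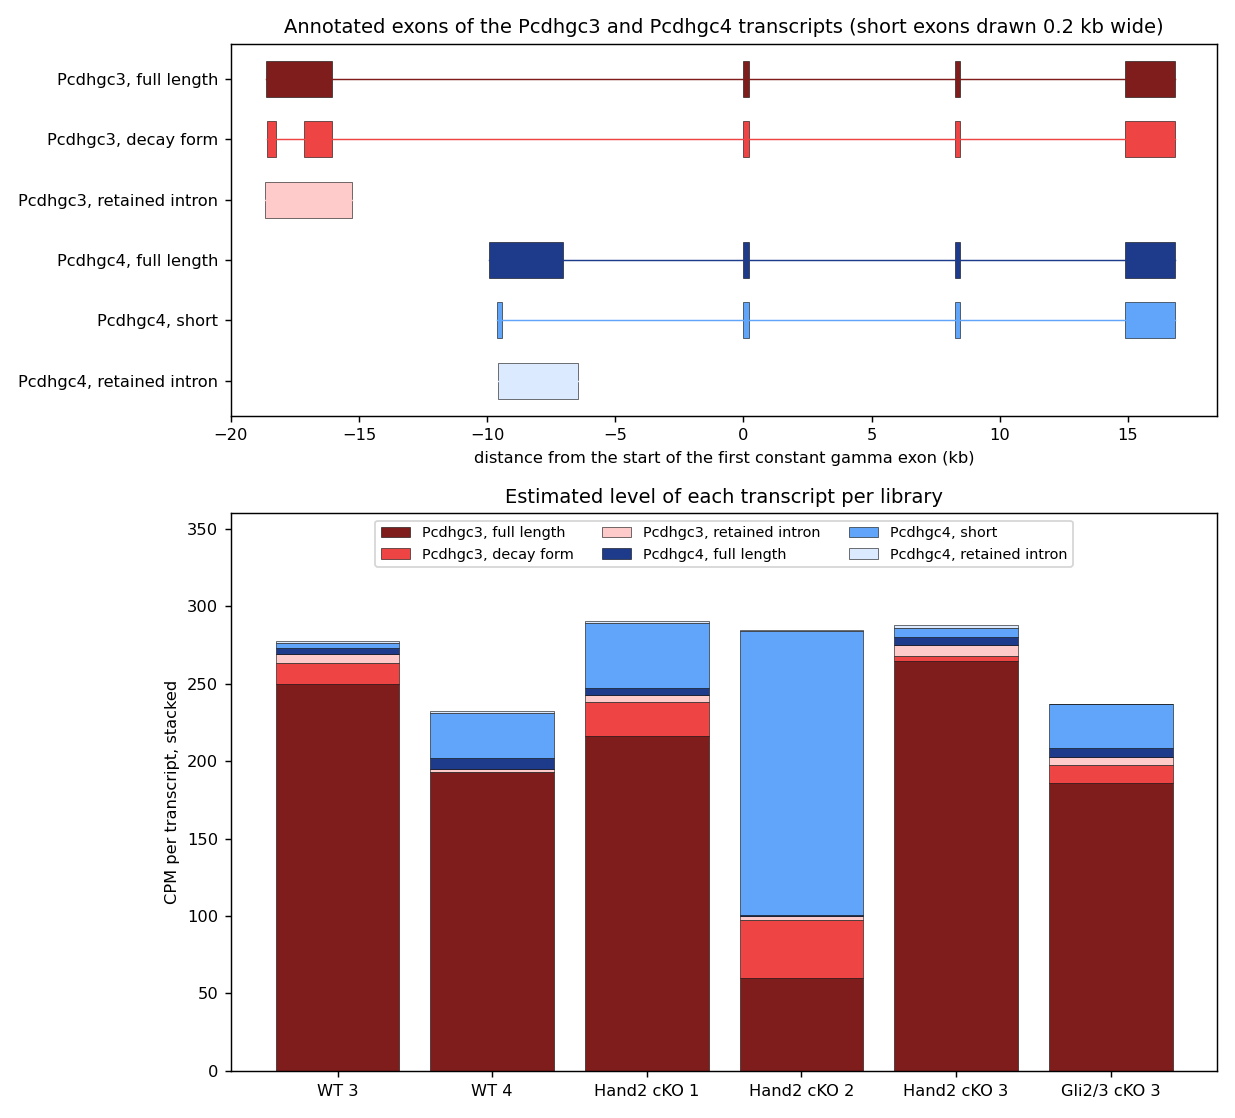
Top, annotated exons of the Pcdhgc3 and Pcdhgc4 transcripts by distance in kilobases from the start of the first constant gamma exon; the 3 constant exons are the blocks from 0 rightwards. Bottom, estimated CPM of each transcript per library, stacked; the short Pcdhgc4 transcript reaches 183 CPM in Hand2 cKO 2 and 2.99 to 41.9 CPM in the other 5 libraries, while the height of the whole stack runs from 232 to 290.

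With Pcdhgc3 and Pcdhgc4 set aside, the other 20 gamma isoforms gave close WT values and lower mutant ones. Their summed CPM was 162 in WT 3 and 160 in WT 4, 124, 53.0 and 142 in Hand2 cKO 1, 2 and 3, and 138 in Gli2/3 cKO. The 2 WT libraries were the highest of the 6, and the Hand2 cKO mean of 106 ± 47.1 CPM (SD, n = 3) was 66.2% of the WT mean of 161 ± 1.60 (SD, n = 2). Without Hand2 cKO 2 it was 82.8%, close to the 85.9% of the Gli2/3 cKO library. A-type isoforms (82.5 and 86.7 CPM in WT, 67.5, 26.3 and 75.3 in Hand2 cKO, 69.5 in Gli2/3 cKO) and B-type isoforms (75.5 and 70.8, then 54.3, 25.1 and 62.2, then 64.4) were each highest in the 2 WT libraries and lowest in Hand2 cKO 2. This set of 20 was chosen after its values were seen and was given no test. These isoforms share the constant exons with Pcdhgc3 and Pcdhgc4. How constant-exon reads were divided therefore cannot be told apart from a change of the isoforms here either.

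**Figure D3:**
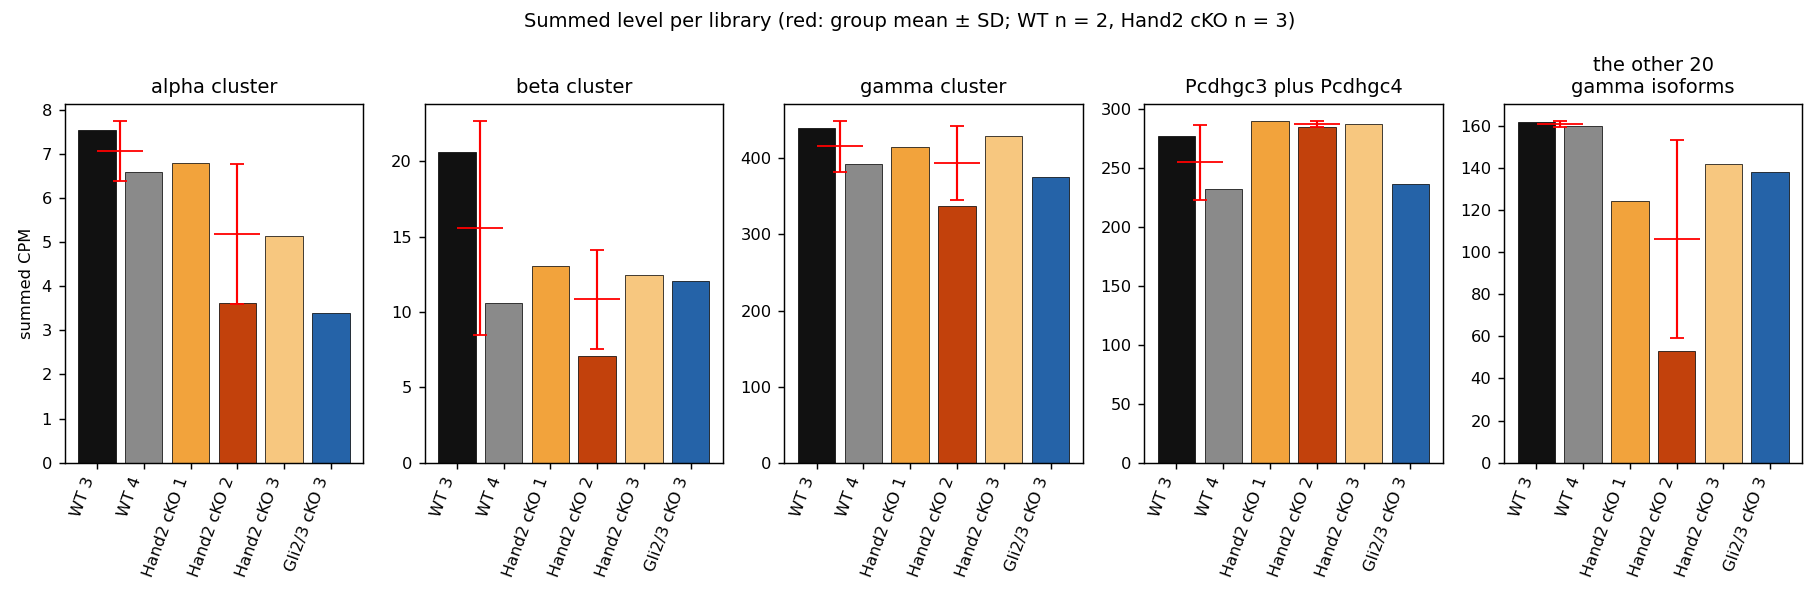
Summed CPM per library for the alpha, beta and gamma clusters, for Pcdhgc3 plus Pcdhgc4 and for the other 20 gamma isoforms, each axis starting at 0. Red lines give the group mean and bars 1 SD (WT, n = 2; Hand2 cKO, n = 3; Gli2/3 cKO is 1 library); beta differs between WT 3 and WT 4 (20.6 and 10.6 CPM), and the other 20 gamma isoforms do not (162 and 160).

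Hand2 cKO 2 was the lowest of the 6 libraries for 21 of the 22 gamma members, Pcdhgc4 being the exception, and for 12 of the 18 beta members that passed the filter. It was lowest for 32.2% of all genes tested and for 58.5% of the 2482 genes whose mean transcript length lay between 4000 and 5500 bases. With the length trend of each library removed it was still lowest for 21 gamma members and for 11 beta members, against 29.3% of all genes. The trend was removed per symbol, after reads had been divided between transcripts. In gamma it therefore does not change how constant-exon reads were divided.

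The order of isoforms within a cluster was alike between libraries in beta and gamma and loose in alpha. Between pairs of libraries, Spearman's rho of the level per kilobase over isoforms was 0.715 to 0.899 in beta (22 isoforms, 15 pairs, median 0.839), 0.721 to 0.951 in gamma (22 isoforms, median 0.854) and 0.0984 to 0.819 in alpha (13 isoforms, median 0.443). WT 3 and WT 4 gave 0.899 in beta, 0.787 in gamma and 0.444 in alpha. These values describe the libraries and are no test, since isoforms share a library and, in alpha and gamma, constant exons. In alpha most of the ranks rested on a few counts: WT 4 had 2 alpha members with at least 3 estimated counts.

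**Figure D4:**
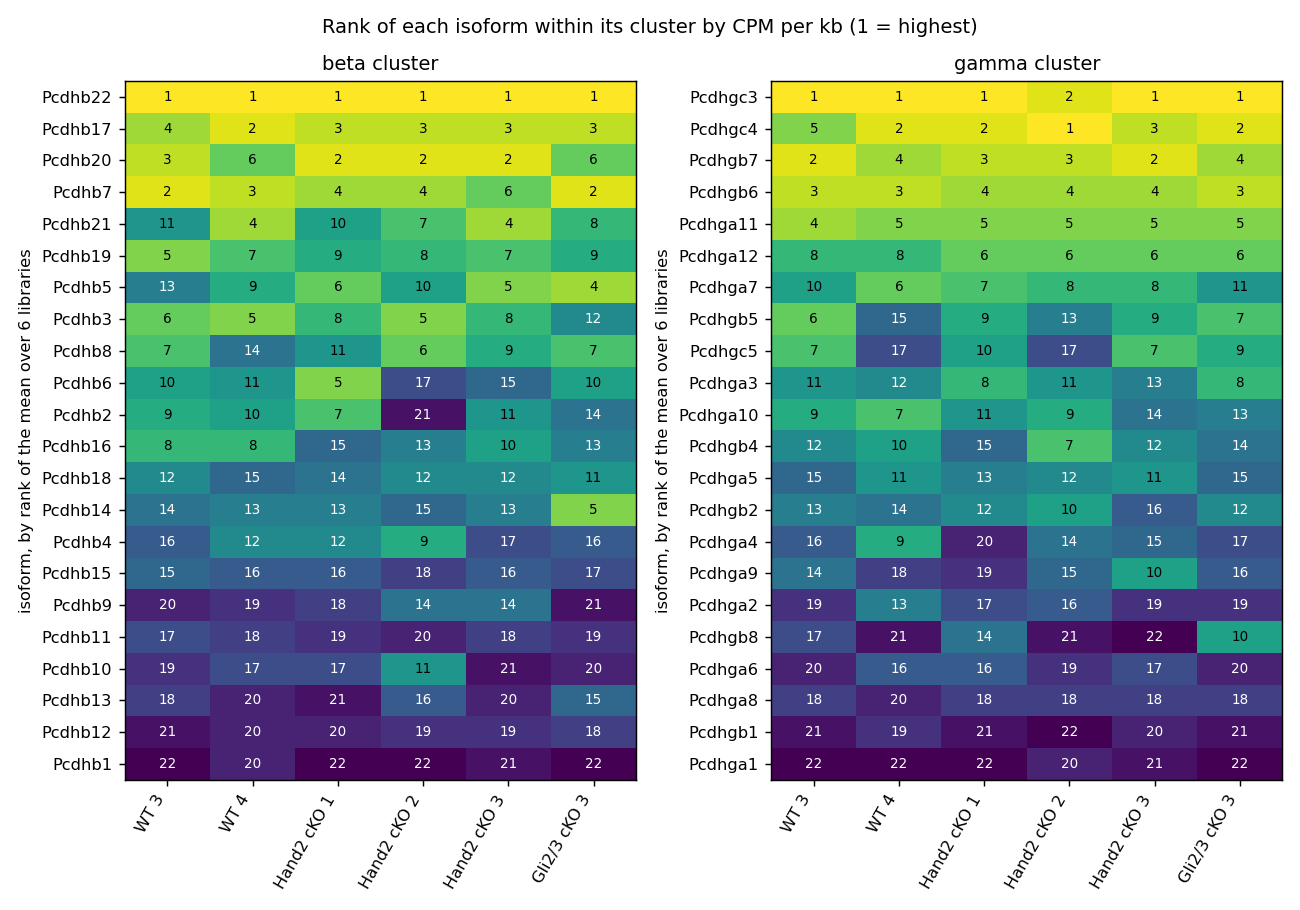
Rank of each beta and gamma isoform within its cluster by CPM per kilobase (1, yellow, is the highest) in the 6 libraries, with isoforms ordered by their mean level. Pcdhb22 ranks 1 in all 6 libraries and Pcdhgc3 in 5, while middle ranks move, such as those of Pcdhb2 (7 to 21) and Pcdhgb8 (10 to 22).

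Spearman's rho between chromosomal order and mean level per kilobase was 0.653 over the 22 gamma isoforms (0.413 to 0.735 in single libraries), 0.380 over the 22 beta isoforms (0.185 to 0.441) and 0.0659 over the 13 alpha isoforms (-0.195 to 0.616). The single-library ranges of the 3 clusters overlapped. In gamma the 6 highest isoforms (Pcdhgc3, Pcdhgc4, Pcdhgb7, Pcdhgb6, Pcdhga11 and Pcdhga12) all stood in the downstream part of the cluster, at positions 14 to 21. The place of Pcdhgc4 among them rests largely on its short transcript, 93.3% of which are constant-exon bases. Its full-length transcript ran from 0.930 to 6.99 CPM. Pcdhgc5, at position 22 and nearest to the constant exons, ranked 9 by mean level, and Pcdhgb8, at position 18, ranked 18. The correlation is a description across isoforms that share reads.

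No clustered protocadherin was called in Hand2 cKO against WT. Hand2 itself was not called by edgeR either, at a log2 fold change of -3.40 ± 0.30 SE (adjusted p = 0.058 by edgeR). A gene that was not called may therefore still have changed. 44 members (4 alpha, 18 beta and 22 gamma) passed the filter, and 0 of them reached an adjusted p below 0.05 with a fold above 1.5 by the quasi-likelihood test of edgeR, nor by DESeq2, where 0.0114% and 1.04% of all 17477 genes were called. At an unadjusted p below 0.05, 3 members were lower, all of them gamma isoforms, and 0 higher (4.02% and 2.44% of all genes). 38 of the 44 had a log2 fold change below 0 (1 of 4 alpha, 16 of 18 beta and 21 of 22 gamma), compared with 50.0% of all genes. The median log2 fold change was -0.55 in gamma and -0.60 in beta, beside -0.00016 over all genes. For alpha no median is given, since Pcdha1 passed the filter through Hand2 cKO 2 alone and was at 0 elsewhere. It counts above as not below 0. The other alpha members had -0.59 (Pcdhac2), 0.0075 (Pcdha11) and 1.67 (Pcdha4).

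The 3 lower gamma isoforms were Pcdhga10, Pcdhga4 and Pcdhgb4, each annotated with its own variable exon and the shared cytoplasmic end. Only 2.14% of the windows of Pcdhga10's main transcript were found in no transcript of another symbol, the lowest share among gamma members. The share was 36.0% for Pcdhga4 and 54.0% for Pcdhgb4, beside the gamma median of 51.9%. The estimated counts of Pcdhga10 may therefore rest largely on how shared reads were divided. Pcdhga10 had 8.04 and 9.10 CPM in WT, 5.20, 2.51 and 5.38 in Hand2 cKO and 5.90 in Gli2/3 cKO (Hand2 cKO against WT, log2 fold change -0.97 ± 0.35 SE, 95% interval -1.83 to -0.11, adjusted p = 0.723 by edgeR). Pcdhga4 had 5.74 and 7.47 CPM in WT, 2.93, 1.98 and 4.78 in Hand2 cKO and 4.25 in Gli2/3 cKO (-1.03 ± 0.39, -1.98 to -0.077, adjusted p = 0.723). Pcdhgb4 had 6.28 and 7.01 CPM in WT, 4.01, 2.83 and 5.10 in Hand2 cKO and 5.28 in Gli2/3 cKO (-0.74 ± 0.29, -1.44 to -0.036, adjusted p = 0.723). In all 3 every Hand2 cKO library lay below both WT libraries, and none passed the adjusted threshold, with adjusted p from 0.284 to 0.953 over the 13 alternatives.

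The groups did not overlap, with Hand2 cKO lower, in 14 of the 44 members (1 alpha, 3 beta and 10 gamma), against 15.7% of all genes tested, and with Hand2 cKO higher in 0, against 15.3%. Beside the 3 above, the gamma members were Pcdhga2, Pcdhga3, Pcdhgb1, Pcdhgb2, Pcdhga5, Pcdhgb6 and Pcdhga11. The beta members were Pcdhb7, Pcdhb16 and Pcdhb17, and the alpha member was Pcdhac2. Pcdhb7 had 1.58 and 0.840 CPM in WT and 0.813, 0.449 and 0.554 in Hand2 cKO (-1.01 ± 0.44, -2.08 to 0.060, adjusted p = 0.723 by edgeR). The gap between the lower WT library and the highest Hand2 cKO library was thus small in Pcdhb7.

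Of the C-type isoforms, Pcdhac1 did not pass the filter and was not tested. The intervals of the others in Hand2 cKO against WT were wide and included 0, although every Hand2 cKO library lay below both WT libraries in Pcdhac2. The log2 fold change of Pcdhgc3 in Hand2 cKO was -0.17 ± 0.43 (-1.22 to 0.87), of Pcdhgc5, which is known from the postnatal brain, -0.18 ± 0.47 (-1.32 to 0.97), and of Pcdhac2 -0.59 ± 0.41 (-1.59 to 0.42). A retained-intron transcript held 82.5% of the Pcdhgc5 counts in WT 4, 82.6% in Hand2 cKO 2 and 43.4% to 53.0% in the other libraries. Full-length Pcdhgc5 was at 0 in WT 4. Pcdhgc4 had 1.84 ± 1.17 (-1.01 to 4.69) with the short transcript and -0.48 ± 0.53 without it. With the short transcript kept, Pcdhgc4 came to 0.41 without Hand2 cKO 2 and to 3.26 without WT 4. The directions of Pcdhgc3 and Pcdhgc5 turned to 0.078 and 0.30 without WT 3 and to 0.14 and 0.095 without Hand2 cKO 2. Of the members with a positive change, Pcdha4 had 1.67 ± 1.34 and Pcdhb9 0.18 ± 0.81, and Pcdha4 came to 0.14 without Hand2 cKO 2 and to 0.96 without WT 4. Without WT 3 Pcdha4 has no reads in WT and no fold is given, and Pcdha1, which rests on 1 library against 0 in WT, was given no fold.

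Which WT library served as reference decided the beta result. The summed beta level of Hand2 cKO was 52.7% of WT 3 and 103% of WT 4, and that of Gli2/3 cKO was 58.5% of WT 3 and 114% of WT 4. The median log2 fold change of the tested beta members in Hand2 cKO was 0.026 without WT 3 and -0.93 without WT 4. The gamma median stayed lower, at -0.51 without WT 3 and -0.59 without WT 4, and came to -0.21 without Hand2 cKO 2. The summed alpha level of Hand2 cKO was 68.6% of WT 3 and 78.7% of WT 4, and the summed gamma level 89.6% and 100.5%.

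**Figure D5:**
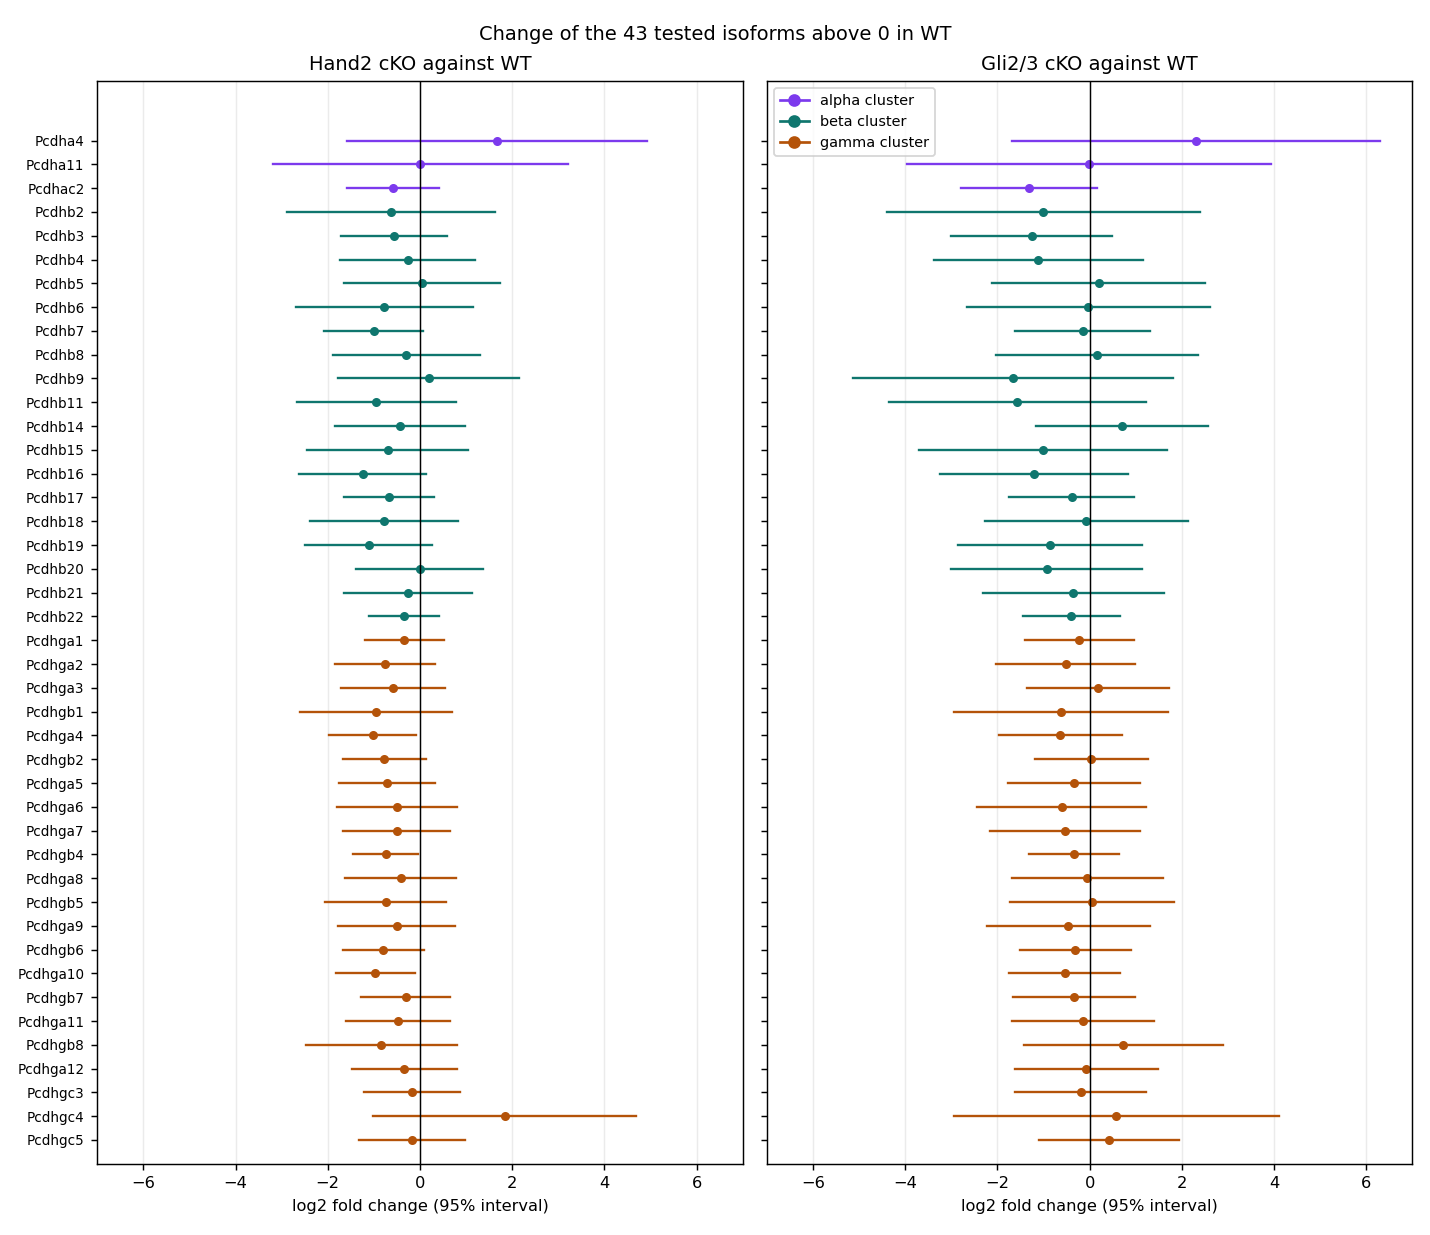
Log2 fold change with its 95% interval (edgeR) of the 43 tested isoforms that were above 0 in WT, for Hand2 cKO (left, 3 libraries) and Gli2/3 cKO (right, 1 library) against the same 2 WT libraries. Most points lie left of 0 in Hand2 cKO, 38 of the 44 tested members, and the intervals of all but Pcdhga10, Pcdhga4 and Pcdhgb4 include 0.

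Gli2/3 cKO was compared with the same 2 WT libraries and has 1 library, so its test borrows the spread of the other groups. 0 of the 44 members were called by edgeR or DESeq2 (0.0114% and 0.750% of all genes), and 0 had an unadjusted p below 0.05 in either direction (2.96% of all genes lower and 1.63% higher). 33 of the 44 members had a log2 fold change below 0, against 49.7% of all genes. The medians were -0.62 in beta and -0.27 in gamma, beside 0.0011 over all genes, and that of beta was 0.11 without WT 3 and -1.03 without WT 4. For alpha no median is given, since Pcdha1 was at 0 in WT and in Gli2/3 cKO. The other alpha members had -1.32 (Pcdhac2), -0.018 (Pcdha11) and 2.30 (Pcdha4).

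The Gli2/3 cKO library lay below both WT libraries in 22 of the 44 members (33.7% of all genes) and above both in 5 (36.5% of all genes). The smallest p belonged to Pcdhac2, which at 2.51 CPM was 39.8% of the WT mean of 6.29 ± 0.140 (SD, n = 2), with a log2 fold change of -1.32 ± 0.60 (-2.79 to 0.16, adjusted p = 1 by edgeR). Pcdhac2 in Gli2/3 cKO thus lay between the values of Hand2 cKO 2 and 3. Next came 3 beta genes with few counts: Pcdhb3 (0.954 and 0.486 CPM in WT, 0.306 in Gli2/3 cKO, -1.26 ± 0.72), Pcdhb16 (1.13 and 0.619, then 0.391, -1.21 ± 0.84) and Pcdhb11 (0.312 and 0.133, then 0.0765, -1.57 ± 1.14). On the higher side stood Pcdha4 (2.30 ± 1.64), Pcdhb14 (1.07 and 0.519 CPM in WT, 1.32 in Gli2/3 cKO, 0.70 ± 0.76), Pcdhgb8 (5.34 and 2.43, then 6.50, 0.73 ± 0.89) and Pcdhgc5 (4.05 and 2.30, then 4.29, 0.42 ± 0.63). The main transcript of Pcdhgb8 is annotated as a polymorphic pseudogene. These values moved with the WT library used: without WT 3 and without WT 4 they were -0.66 and -1.63 for Pcdhb3, -0.69 and -1.56 for Pcdhb16, 1.33 and 0.32 for Pcdhb14, 1.42 and 0.28 for Pcdhgb8, and 0.90 and 0.080 for Pcdhgc5. Pcdhgc3 had -0.19 ± 0.58 (-1.61 to 1.23) and Pcdhgc4 0.58 ± 1.45 (-2.95 to 4.10).

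Between the mutants, Gli2/3 cKO against Hand2 cKO, 0 of the 44 members were called by edgeR or DESeq2 (0.0343% and 0.824% of all genes), and 0 had an unadjusted p below 0.05 (2.63% of all genes lower and 2.86% higher). 17 of the 44 had a log2 fold change below 0, against 51.7% of all genes. Pcdha1, above 0 in Hand2 cKO 2 alone, is among the 17. The median was 0.35 in gamma and -0.0056 in beta, beside -0.015 over all genes, and the gamma median was 0.037 without Hand2 cKO 2. The alpha members other than Pcdha1 had -0.73 (Pcdhac2), -0.026 (Pcdha11) and 0.63 (Pcdha4). Gli2/3 cKO lay above all 3 Hand2 cKO libraries in 13 members and below all in 5 (28.7% and 27.2% of all genes). Pcdhgb8 had the smallest p, at 6.50 CPM in Gli2/3 cKO and 4.17, 0.941 and 1.42 in Hand2 cKO (1.57 ± 0.80, -0.38 to 3.52, adjusted p = 0.906 by edgeR). Pcdhgb2 (0.81 ± 0.46), Pcdhb14 (1.14 ± 0.70) and Pcdhb7 (0.86 ± 0.55) followed on the higher side, and Pcdhb9 (-1.85 ± 1.36), Pcdhac2 (-0.73 ± 0.56) and Pcdhb20 (-0.92 ± 0.82) on the lower.

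None of the listed genes that act on the clusters or with their proteins was called. Of 20 regulators of the clusters, all tested, 0 were called and 0 had an unadjusted p below 0.05 in any of the 3 comparisons, and their median log2 fold change was 0.014 in Hand2 cKO and 0.066 in Gli2/3 cKO against WT. Ctcf, the looping protein of the isoform promoters, had 208 and 184 CPM in WT, 215, 176 and 214 in Hand2 cKO and 213 in Gli2/3 cKO (Hand2 cKO against WT, 0.043 ± 0.17). Rad21, a cohesin subunit, had a log2 fold change of -0.00046 ± 0.21, Smchd1, which represses the clusters, -0.048 ± 0.26, and Dnmt3b, a methyltransferase of isoform promoters, 0.087 ± 0.16. Dnmt3b was the lowest of these 4, at 43.1 to 55.7 CPM.

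Of 19 partners, among them the kinases Ptk2 and Ptk2b that bind the constant cytoplasmic end, the proteases that cut protocadherins (Adam10 and the gamma-secretase subunits) and the WAVE complex, 0 were called and 0 had an unadjusted p below 0.05 in any comparison. Their log2 fold changes ran from -0.34 (Ncstn) to 0.92 (Ret, a receptor kinase, ± 0.65) in Hand2 cKO and from -0.76 (Ptk2b, ± 0.48) to 0.27 (Wasf3) in Gli2/3 cKO against WT. The smallest p among them in Hand2 cKO against WT belonged to Ncstn, a gamma-secretase subunit, with a log2 fold change of -0.34 ± 0.16 (adjusted p = 0.723 by edgeR). Of 12 non-clustered protocadherins, which are single genes elsewhere in the genome, 0 were called and 1 had an unadjusted p below 0.05. That was Pcdh8, a protocadherin of neural and paraxial tissue, with 1.11 and 0.442 CPM in WT, 1.04, 1.69 and 1.59 in Hand2 cKO and 2.41 in Gli2/3 cKO (Gli2/3 cKO against WT, 1.58 ± 0.60, adjusted p = 1 by edgeR). Pcdh8 was lowest in WT 4, and its Gli2/3 cKO value was the highest of the 6. The median of the 12 was 0.11 in Hand2 cKO and -0.050 in Gli2/3 cKO against WT. Of 13 classical cadherins and catenins, 0 were called, and Jup (-0.49 ± 0.17 in Gli2/3 cKO against WT), which links cadherins to the cytoskeleton, and Cdh10 (-1.04 ± 0.40 in Gli2/3 cKO against Hand2 cKO) had an unadjusted p below 0.05.

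Of 18 other protein-coding genes within 200 kb of the outermost isoforms, a set chosen after the data were seen, 15 were tested, and 3 readthrough models that span the clusters were at 0. 0 of the 15 were called in either comparison with WT. Their median log2 fold change was 0.13 in Hand2 cKO, with a range of -0.46 to 1.85, beside a median of -0.55 for the gamma members. Taf7, a subunit of the general transcription machinery between the beta and gamma clusters, had 26.6 and 28.7 CPM in WT, 30.3, 34.7 and 28.8 in Hand2 cKO and 26.3 in Gli2/3 cKO (Hand2 cKO against WT, 0.18 ± 0.15). Diaph1, a formin just downstream of gamma, had -0.044 ± 0.13, and Arap3, farther downstream, -0.46 ± 0.17, the 1 neighbour with an unadjusted p below 0.05 in Hand2 cKO against WT.

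Marker genes of cell types present in or near the MNP were set beside these results. 9 mesenchymal genes summed to 1521 to 1732 CPM in WT, 1722 to 1802 in Hand2 cKO and 1769 in Gli2/3 cKO, so the defining genes of the labelled tissue were present in every library. 15 neuronal genes summed to 110 and 156 CPM in WT, 98.1, 127 and 91.9 in Hand2 cKO and 106 in Gli2/3 cKO, and 8 of neural progenitors and glia to 43.5 and 36.7, then 41.9, 32.3 and 41.4, then 38.8. Most of the neuronal sum was Gap43. Without it the sums were 43.6 and 49.1 CPM in WT, 40.2, 33.4 and 35.0 in Hand2 cKO and 40.6 in Gli2/3 cKO. Hand2 cKO 2 was lowest, as it was for 32.2% of all genes tested. Of the 13 tested neuronal genes 9 had a log2 fold change below 0 in Hand2 cKO against WT. Dcx, a microtubule protein of young neurons, had 7.54 and 5.92 CPM in WT, 2.08, 0.607 and 1.85 in Hand2 cKO and 5.82 in Gli2/3 cKO (Hand2 cKO against WT, -2.15 ± 0.50, adjusted p = 0.526 by edgeR). The Dcx groups did not overlap, and Dcx was called by DESeq2. 10 epithelial genes summed to 339 to 348 CPM in WT and 330 to 377 in Hand2 cKO, 8 endothelial genes to 262 to 309 and 254 to 259, 8 macrophage genes to 21.6 to 30.8 and 20.1 to 30.6, and 8 muscle genes to 43.2 to 46.1 and 36.5 to 48.3. In Gli2/3 cKO these 4 sums were 323, 251, 14.8 and 45.6 CPM, and the 8 erythroid genes, beside their WT values above, summed to 3663 to 8052 CPM in Hand2 cKO and 3435 in Gli2/3 cKO. No gene of these lists was at 0 in all libraries, and the part of cell make-up in the protocadherin values was not tested.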

How the data were processed

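Each of the 6 deposited files gives expected counts, read numbers that the authors' program estimated for 105129 transcripts. Per the study and the submitters' processing notes, paired-end reads were mapped to mm10, quantified in Strand NGS and tested with DESeq2; the sources used here name neither annotation nor strand setting. The design had called for whole counts, so estimated counts were summed per symbol and rounded. 103635 transcripts had a length in GENCODE M21. 17477 genes passed filterByExpr and entered 1 quasi-likelihood fit of edgeR 4.0.16 (R 4.3.3; scaling by the trimmed mean of M values, genotype as the only term, 3 residual degrees of freedom). Calls used the study's thresholds, a fold above 1.5 with p below 0.05 after Benjamini-Hochberg adjustment. DESeq2 1.42.0 and the alternatives given in the closing section were run beside it, and the fit was tested on simulated data. Values after ± in fold changes are standard errors, and intervals are at 95%. CPM use the scaled library sizes, except for the limits that a count of 0 allows, which use total counts. CPM per kilobase divides each transcript's count by its length before summing. Chi-square per degree of freedom between libraries of a group was 24.0 to 225, so none was a copy. Named members were the 5 C-type isoforms, the 4 highest and 2 lowest detected isoforms per cluster, and 4 per direction and comparison with the smallest p. Sequences are not printed here. 1 result on a marker gene is not reported here. The members, lists and rules were chosen with earlier results of these data known.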

Additional observations from a re-analysis of the deposited data

How the results depend on the processing

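No clustered protocadherin was called in any of the 3 comparisons under any of the 13 alternatives of each (DESeq2, upper-quartile or total-count scaling, no filter, length trend removed, top transcript per symbol, 2 groups only, the short Pcdhgc4 transcript left out, and each WT or Hand2 cKO library left out). Leaving out the short transcript was chosen after seeing the data. Genes called among all tested ran from 1 to 182 in Hand2 cKO against WT (2 in the reported fit), 0 to 131 in Gli2/3 cKO against WT (2) and 0 to 144 between the mutants (6), each highest with DESeq2, so a member that was not called may still have changed. Where 1 WT library was left, it was assumed to vary like the other groups. With total-count scaling the median of all genes in Hand2 cKO moved to -0.12, and beta and gamma to -0.69 and -0.64. No paired analysis was possible because the groups compared share only replicate number 3, and a block would leave 0 residual degrees of freedom.

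The log2 ratio of summed beta level over WT was -0.52 in Hand2 cKO and -0.37 in Gli2/3 cKO. Leaving out 1 library gave -0.93 to 0.039 and -0.77 to 0.19, the highest value of each being that without WT 3, since WT 4 alone was then the reference. The summed gamma ratio in Hand2 cKO was -0.078 (-0.16 to 0.022 leaving out 1 library), -0.55 as the median over members, which gives Pcdhgc3 and Pcdhgc4 no more weight than the rest, and -0.33 without the short Pcdhgc4 transcript. The summed alpha ratio in Gli2/3 cKO was -1.05, and Pcdhac2 made up 2.51 of the 3.40 CPM summed there. The ratio turned to 1.32 as the median over members above 0 in both groups. Those were Pcdhac2 (39.8% of the WT mean), Pcdha11 (104%), Pcdha4 (600%) and Pcdha5 (623%). In Gli2/3 cKO, Pcdha11, Pcdha4 and Pcdha5 had 4.98, 14.1 and 4.37 estimated counts. Alpha members at 0 in either group were left out of that median. Among single members, directions turned without WT 3 for Pcdhgc3 (0.078 in Hand2 cKO, 0.059 in Gli2/3 cKO), Pcdhgc5 (0.30 in Hand2 cKO) and Pcdhgc4 (-0.13 in Gli2/3 cKO, down from 0.58), without WT 4 for Pcdhb9 (-0.095 in Hand2 cKO), without Hand2 cKO 2 for Pcdhgc3 (0.14) and Pcdhgc5 (0.095) in Hand2 cKO, and without the short transcript for Pcdhgc4 (-0.48 in Hand2 cKO, -0.24 in Gli2/3 cKO). Over all libraries left out in turn, Pcdhgc3 ranged from -0.44 to 0.14 in Hand2 cKO and -0.41 to 0.059 in Gli2/3 cKO, Pcdhgc5 from -0.57 to 0.30 in Hand2 cKO, and Pcdhgc4 from -0.13 to 1.99 in Gli2/3 cKO. The median correlation of isoform order between libraries moved by less than its spread over pairs with counts not divided by length or with the top transcript only.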
